A study of Mus musculus with 12 samples.

Results

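The axon guidance genes examined here were the semaphorins, plexins, neuropilins, netrins, netrin receptors, slits and Robo receptors. They were picked by symbol alone, as every gene column named Sema3 to Sema7 with a letter, Plxna1 to Plxna4, Plxnb1 to Plxnb3, Plxnc1, Plxnd1, Nrp1, Nrp2, Ntn1, Ntn3 to Ntn5, Ntng1, Ntng2, Unc5a to Unc5d, Dcc, Neo1, Slit1 to Slit3 and Robo1 to Robo4. This gave 50 of the 24489 genes in the count table: 7 secreted and 13 membrane-bound semaphorins, 2 neuropilins, 9 plexins, 4 netrins, 2 netrin-G proteins, 6 netrin receptors, 3 slits and 4 Robo receptors.

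Secreted semaphorins reach growth cones through neuropilins, which hold a plexin as the signalling partner. Most membrane-bound semaphorins bind plexins directly, and both kinds mainly repel axons. Netrins attract axons through DCC and neogenin (Neo1) and repel them when a UNC5 receptor takes part. Slits repel axons that carry Robo receptors, and the membrane-anchored netrin-G proteins act in adhesion at axons and synapses. In the cochlea, such cues guide the peripheral fibres of spiral ganglion neurons (SGNs) through glia and otic mesenchyme to the hair cells (HCs): type I fibres to inner hair cells (IHCs) and type II fibres to outer hair cells (OHCs).

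The study followed SGN diversification in the mouse cochlea with Smart-seq2, a full-length single-cell mRNA method, on reporter-positive cells sorted into 384-well plates. Each plate is a deposited sample and was taken as 1 replicate. There were 2 plates each at P3, E18.5, E15.5 and E14.5, E16.5 had 3 and E17.5 had 1. P3 cells came from earlier work of the same authors. Every mouse carried the Cre reporter Ai14, which expresses tdTomato in cells with a history of Cre. The labels give the driver as TrkCcre for replicate 2 of E14.5 and as PVcre for the other plates. The methods name the Ntrk3 (TrkC) driver for E14.5, so the driver of replicate 1 of E14.5 is uncertain. Cells of several pooled animals went into a plate, labelled as cochlea, and the dissection aimed at the spiral ganglion. A driver active in only some SGN, or in other cells, sets what such a sort holds, and no wild-type animal without the reporter was compared.

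Of 4608 wells, 4226 passed the filter, with 80997594 to 303906928 counts per plate and a median of 232473 to 1092427 counts per well. Replicate 2 of P3 kept 125 of 384 wells. Clusters were named only from fixed markers, without the guidance genes, as SGN-like, glia-like, otic mesenchyme-like (OM-like) and HC-like, and counts of a class were summed within a plate. Neuron markers made up 12543 to 15293 CPM (counts per 1000000 counts of the sum) of the SGN-like sums in the 6 plates of the SS2_20 series (named so in the labels, covering E14.5 to E17.5), against 496 to 704 CPM in the glia-like sums. SGN-like wells that also carried glial markers (821) were set aside and 1379 were used. Those set aside were mostly late: 10 in the SS2_20 plates, but 714 at E18.5 and P3, where 364 were used. At P3, replicates 1 and 2 used 97 and 19 wells and set aside 279 and 106. Comparisons of late with early SGN-like wells thus rest on a selected part of the late ones. In the wells used, summed glial markers measured 25.4 to 50.1 CPM in the SS2_20 plates, 92.5 and 94.8 CPM at E18.5 and 293 and 344 CPM at P3. A sum over wells does not tell fewer expressing cells from less RNA per cell.

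All 50 genes had counts in some sum. With counts divided by exon length, so that genes can be compared, SGN-like sums at E14.5 were led by Neo1 (33.6 CPM per kb), Sema6a (29.2) and Plxna3 (28.5). At E18.5 they were led by Sema3e (67.5), Neo1 (47.1) and Plxna1 (43.2), and at P3 by Sema3e (75.5). Glia-like sums were led by Plxnb2 (27.7), Ntng1 (26.8) and Sema3b (23.6), and OM-like sums by Plxnb2 (38.0), Nrp2 (23.7) and Neo1 (23.5). At E18.5, Sema5b led in IHC-like (79.4) and OHC-like (95.4) sums. The levels that follow are CPM, which compare samples for 1 gene and not genes with each other. Robo4, Ntn5 and Sema3g stayed at or under 1.40 CPM in SGN-like sums and Robo3 at or under 7.72 CPM. Of the netrin ligands, Ntn1 measured at most 2.19 CPM and Ntn4 at most 2.50 CPM over the 12 plates, while Ntn3 measured 5.80 to 63.7 CPM.

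**Figure D1:**
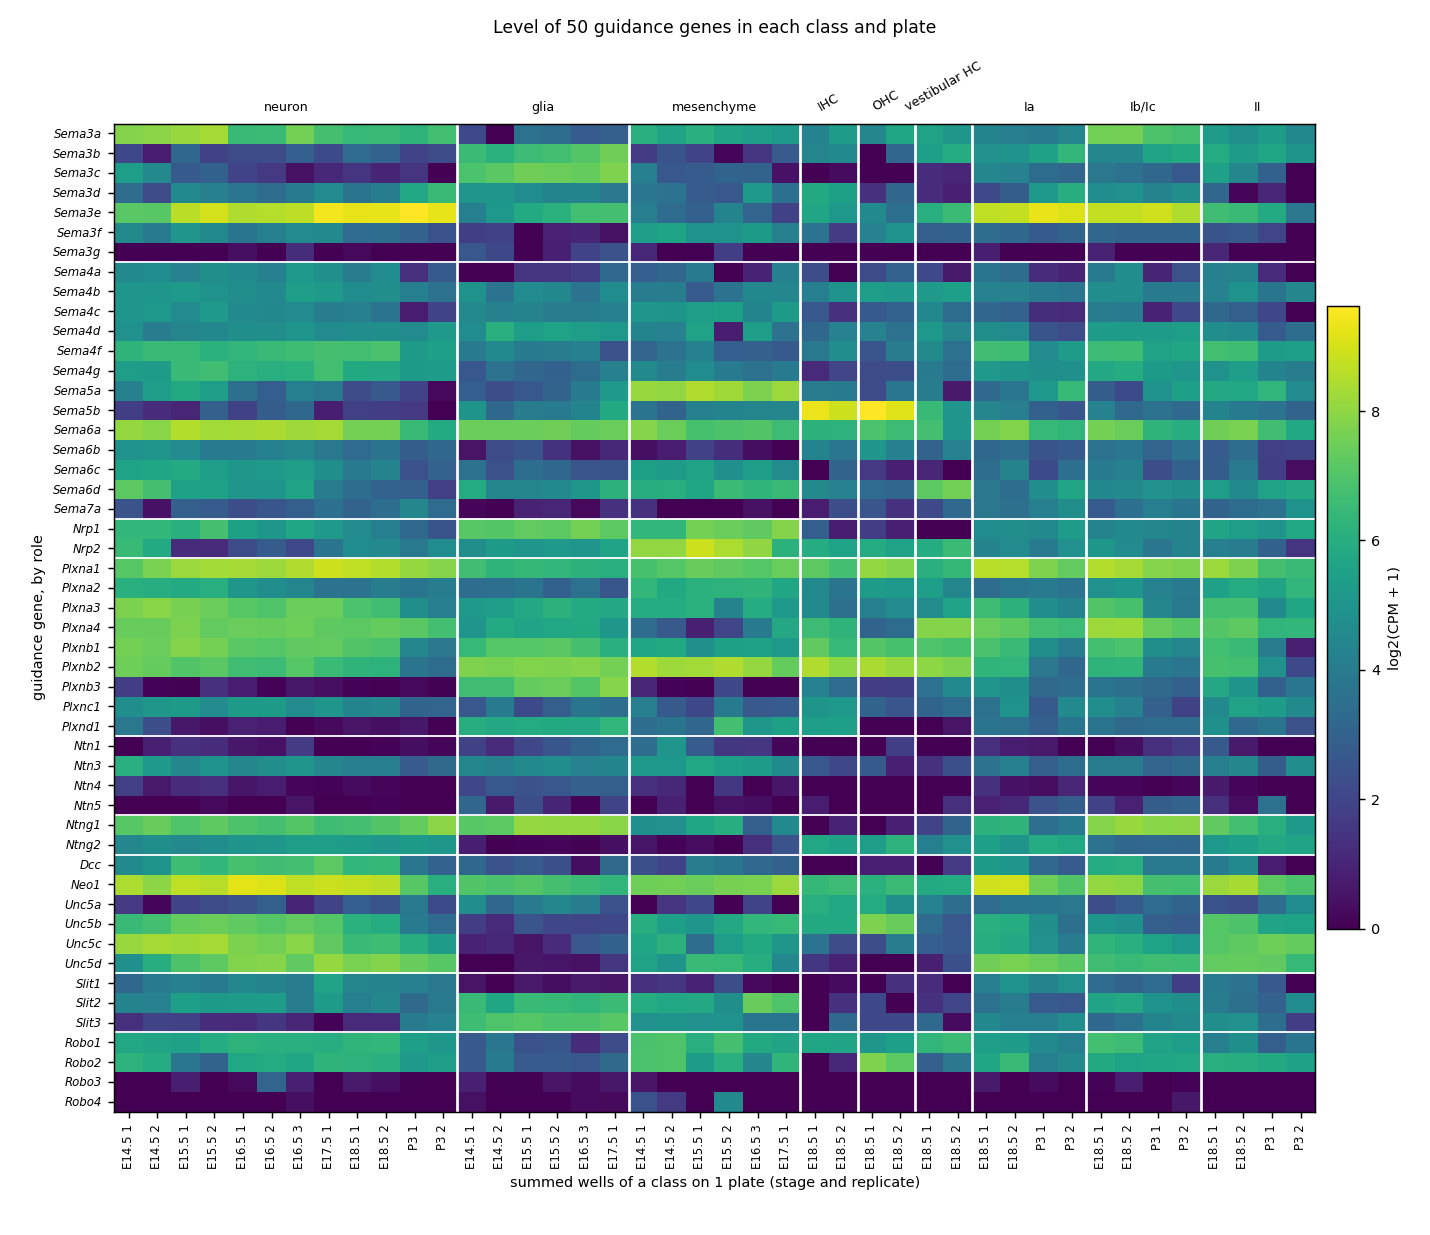
Heatmap of log2(CPM + 1) for the 50 guidance genes (rows, grouped by role) in the 42 sums of 1 class and 1 plate (columns, grouped by class and ordered by stage). Sema3e is high in every SGN-like column, Plxnb3 in every glia-like column and Sema5b in the IHC-like and OHC-like columns, while Robo3 and Robo4 stay near 0 in most columns.

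The first comparison asked how guidance genes differed between E18.5 and E14.5 in SGN-like cells. Sema3e, Unc5d and Dcc were higher at E18.5, and Sema6d, Plxna2, Sema3a and both neuropilins were lower, the neuropilins in the summed counts but not in a fit of per-well means. By edgeR's quasi-likelihood test (adjusted p under 0.05 over all genes), 19 of the 48 tested guidance genes passed, 6 higher and 13 lower. That is 39.6% of them, where 21.2% of all 16454 genes passed (12.5% higher and 8.70% lower). Ntn5 and Robo4 were too low to test. The median log2 fold change of the guidance genes was -0.33, against 0.02 over all genes. On mean log2(CPM + 1) per well with limma, which weights every well alike and shifts the median of all genes to 0.49, 19 were higher and 5 lower. These 24 of 48 stand beside 7751 of 16454 genes called in that fit.

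Among ligands, Sema3e, a secreted semaphorin that can bind Plxnd1 without a neuropilin, measured 139.8 and 136 CPM at E14.5, 397 and 492 at E15.5, 355, 377 and 408 at E16.5, 699 at E17.5, 636 and 617 at E18.5 and 782 and 619 at P3. The E18.5 plates lay above both E14.5 plates (log2 fold change 2.24 ± 0.15 (SE), adjusted p = 1.74e-06). Sema3a, the ligand of Nrp1, measured 229 and 243 CPM at E14.5, 283 and 322 at E15.5, 88.6, 93.4 and 192 at E16.5, 109 at E17.5, 85.4 and 90.8 at E18.5 and 75.3 and 104 at P3. It went the other way, with both E18.5 plates below both E14.5 plates (log2 fold change -1.36 ± 0.30 (SE), adjusted p = 0.00734). Sema6d, a membrane-bound ligand of Plxna1, showed 145 and 108 CPM at E14.5, 44.1 and 44.9 at E15.5, 31.4, 32.1 and 48.1 at E16.5, 15.5001 at E17.5, 9.98 and 7.14 at E18.5 and 6.77 and 2.58 at P3. Every later plate lay below the E14.5 plates (log2 fold change -3.83 ± 0.41 (SE), adjusted p = 6.19e-05). Sema3c (40.2 and 22.3 CPM at E14.5, 5.52 and 7.03 at E15.5 and 1.71 and 1.001 at E18.5, log2 fold change -4.47 ± 1.25 (SE), adjusted p = 0.0245) and Sema5a (17.0 and 40.2 CPM at E14.5, 56.0 and 40.7 at E15.5 and 3.64 and 5.48 at E18.5, log2 fold change -2.58 ± 0.82 (SE), adjusted p = 0.0426) were lower at E18.5 as well. Of the 7 secreted semaphorins 1 rose and 2 fell, and of the 13 membrane-bound ones 1 rose (Sema4g) and 4 fell.

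Among receptors, Nrp1 measured 80.5 and 80.9 CPM at E14.5, 67.2 and 109 at E15.5, 43.5, 32.6 and 50.6 at E16.5, 35.9 at E17.5, 23.7 and 16.9 at E18.5 and 8.87 and 4.68 at P3. The E18.5 plates lay below those of E14.5 (log2 fold change -1.93 ± 0.34 (SE), adjusted p = 0.00168). The call was lost in the per-well limma fit (-0.29, adjusted p = 0.543) and in the 50% of SGN-like wells with the least glial marker (adjusted p = 0.0888). Nrp2, the receptor of Sema3f, was at 91.7 and 57.1 CPM at E14.5, 1.35 and 1.19 at E15.5, 3.55, 6.05 and 3.35 at E16.5, 11.8 at E17.5, 24.3 and 22.0 at E18.5 and 13.9 and 24.4 at P3. Its lowest plates were those of E15.5, and E18.5 was below E14.5 in the summed counts (log2 fold change -1.63 ± 0.37 (SE), adjusted p = 0.00859) though not in the per-well limma fit (0.13, adjusted p = 0.83). Plxna2, a plexin that Sema6a can bind, measured 67.5 and 62.6 CPM at E14.5, 57.6 and 65.9 at E15.5, 32.9, 25.2 and 20.2 at E16.5, 11.5 at E17.5, 11.6 and 15.7 at E18.5 and 12.2 and 15.6 at P3. It was lower at E18.5 (log2 fold change -2.19 ± 0.28 (SE), adjusted p = 0.000181). Plxna1 was higher (138.5 and 202 CPM at E14.5 and 418 and 364 at E18.5, log2 fold change 1.26 ± 0.17 (SE), adjusted p = 0.000327), and Plxnb2 and Plxna3 were lower. For Plxna4 (166.4 and 164 CPM at E14.5, 145 and 161 at E18.5), Plxnc1 and Ntng1 no difference passed.

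The netrin receptors moved in both directions. Unc5d measured 27.3 and 62.8 CPM at E14.5, 123 and 150.4 at E15.5, 223, 231 and 152 at E16.5, 271 at E17.5, 203 and 224 at E18.5 and 164 and 136 at P3. Every later plate lay above E14.5 (log2 fold change 2.31 ± 0.33 (SE), adjusted p = 0.000398). Dcc was at 22.5 and 30.6 CPM at E14.5, 96.8 and 81.0 at E15.5, 111, 100.1 and 106 at E16.5, 147 at E17.5, 81.8 and 84.2 at E18.5 and 12.7 and 7.17 at P3. It was highest at E17.5 and lowest at P3, with E18.5 above E14.5 (log2 fold change 1.71 ± 0.25 (SE), adjusted p = 0.000539). Unc5c, a repulsive netrin receptor, fell (278 and 319.6 CPM at E14.5 and 90.6 and 98.3 at E18.5, log2 fold change -1.60 ± 0.20 (SE), adjusted p = 0.000167). No slit passed, and of the Robo receptors Robo1 was higher. Slit1 measured 8.53 and 14.8 CPM at E14.5 and 19.7 and 18.6 at E18.5. Slit2 measured 18.7 and 18.3 CPM at E14.5 and 16.8 and 21.1 at E18.5. Values for Sema3f (23.5 and 14.4 against 9.22 and 10.1), Sema4d (28.2 and 15.7 against 25.3 and 26.6) and Ntng2 (21.1 and 26.5 against 38.1 and 32.3) did not pass either. Of 49 further pathway genes fixed as a list, such as the CRMP and MICAL effectors, 7 were higher and 8 lower.

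**Figure D2:**
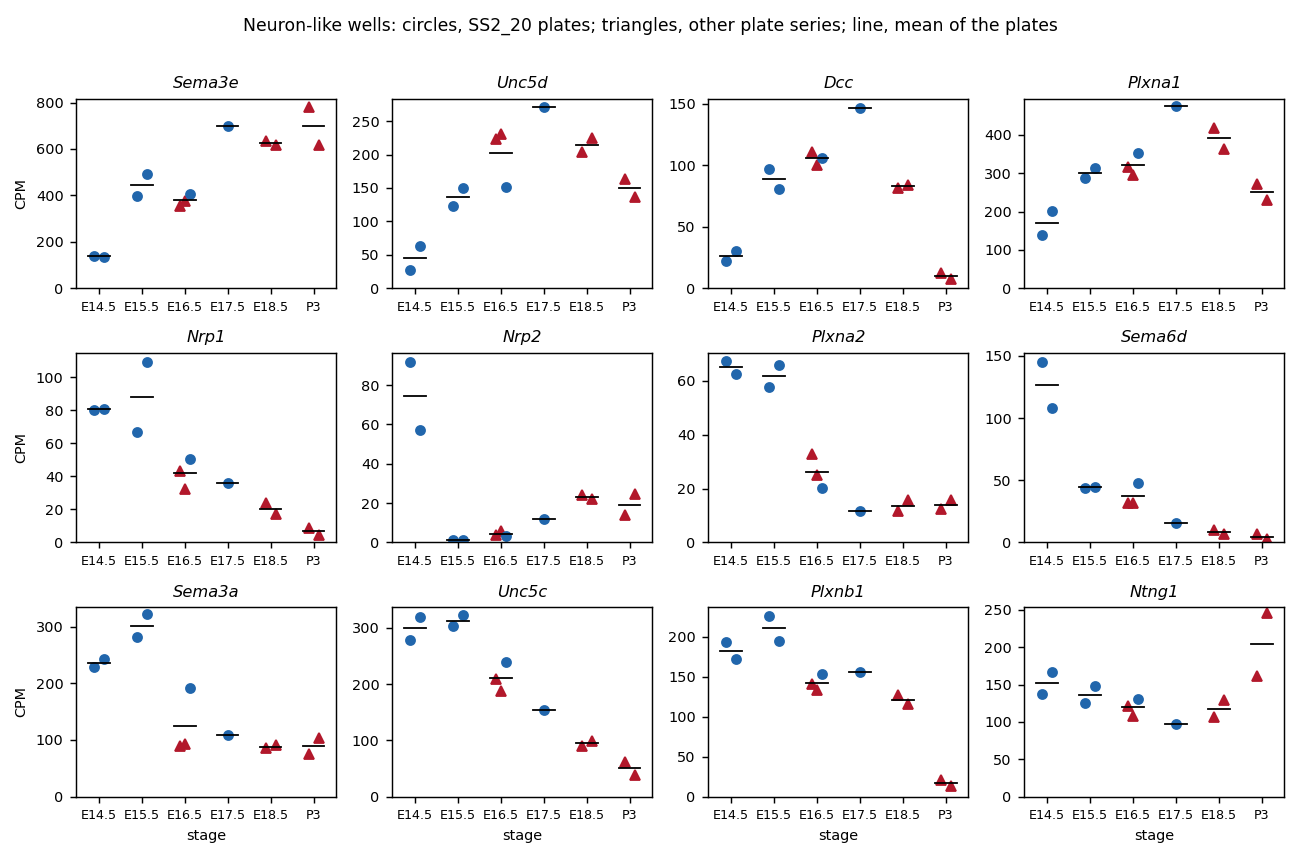
CPM (vertical axis, each panel with its own scale from 0) of 12 guidance genes in SGN-like sums by stage (horizontal axis). Circles are plates of the SS2_20 series, triangles plates of other series and each short line is the mean of a stage. Sema3e, Unc5d and Plxna1 lie higher after E14.5, Dcc is low at E14.5 and at P3, and Nrp1, Plxna2 and Sema6d lie lower late.

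Plate series and stage cannot be told apart in this comparison, because both E14.5 plates are of the SS2_20 series and both E18.5 plates of SS2_19. The Cre driver differs as well, with PVcre at E18.5 and TrkCcre at E14.5, by label in replicate 2 and by the methods in both. That difference also enters the comparison within SS2_20 plates, where E14.5 is among the earlier plates. At E16.5, where the series overlap, Sema3a measured 88.6 and 93.4 CPM in the SS2_18 plates and 192 CPM in the SS2_20 plate, so the series differed for this gene at 1 stage. Within the SS2_20 plates, E16.5 and E17.5 against E14.5 and E15.5 gave these values. The log2 fold changes were 0.94 ± 0.52 (SE) for Sema3e, 1.23 ± 0.56 for Unc5d, 1.14 ± 0.53 for Dcc, -1.999 ± 0.27 for Plxna2, -0.96 ± 0.24 for Nrp1, -0.84 ± 0.24 for Sema3a and -1.43 ± 0.64 for Sema6d. None of these 7 passed (adjusted p = 0.163 to 0.503), and both comparisons use the E14.5 plates. Calls of Sema3a, Sema3c, Sema5a and Nrp2 were lost without replicate 1 of E18.5 (adjusted p = 0.0609, 0.119, 0.228 and 0.0605) and without replicate 2 (0.0502, 0.177, 0.147 and 0.0814), and those of Sema3c and Nrp2 also without replicate 1 of E14.5 (0.092 and 0.0772). Sema5a was lost without replicate 2 of E14.5 (0.195), without either E15.5 plate (0.0658 and 0.0637) and without replicates 1 and 3 of E16.5 in turn (0.0581 and 0.0521). Without replicate 2 of E14.5 the log2 fold change of Unc5d was 3.02. With the wells of mixed markers kept, Sema3c (-0.61, adjusted p = 0.653) and Sema5a (-0.99, adjusted p = 0.127) no longer passed, nor did they in the 50% of wells with the least glial marker (adjusted p = 0.111 and 0.0858).

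From E18.5 to P3 most calls were downward. Dcc, Plxnb1, Plxnb2 and several membrane-bound semaphorins were lower in the P3 plates, and Slit3, Sema3d and Ntng1 were higher. Of 48 tested guidance genes 18 passed, 3 higher and 15 lower, 37.5% of them against 24.6% of all 16454 genes (11.5% higher and 13.1% lower). Their median log2 fold change was -0.58, against -0.08 over all genes. Of the 49 pathway genes 5 were higher and 17 lower.

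Dcc, the netrin receptor of attraction, fell from 81.8 and 84.2 CPM to 12.7 and 7.17 CPM (log2 fold change -2.79 ± 0.26 (SE), adjusted p = 4.15e-05). Plxnb1, the receptor of Sema4d, fell from 127 and 115 to 20.8 and 12.9 CPM (log2 fold change -2.58 ± 0.21 (SE), adjusted p = 1.99e-05). Sema4c, a ligand of Plxnb2, measured 17.1 and 11.9 CPM and then 0.650 and 2.95 CPM (log2 fold change -2.88 ± 0.54 (SE), adjusted p = 0.0024). Plexins gave 4 of the downward calls, membrane-bound semaphorins 5 and netrin receptors 4. Plxnb2, Sema4a, Unc5b, Plxna3, Neo1, Sema6c, Sema4f, Sema6a, Robo1 and Unc5c were also lower, with log2 fold changes from -2.52 to -0.65.

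Nrp1 (23.7 and 16.9 CPM, then 8.87 and 4.68, log2 fold change -1.30 ± 0.34 (SE), adjusted p = 0.0148) and Plxnc1, the receptor of Sema7a (19.4 and 20.8 CPM, then 7.59 and 7.73, log2 fold change -1.15 ± 0.30 (SE), adjusted p = 0.0167), were lower too. In the upward direction Ntng1, which binds the adhesion protein encoded by Lrrc4c, measured 106 and 129 CPM at E18.5 and 162 and 246 at P3 (log2 fold change 1.03 ± 0.19 (SE), adjusted p = 0.00241). Sema3d measured 11.9 and 15.3 CPM at E18.5 and 51.6 and 87.4 at P3 (log2 fold change 2.59 ± 0.43 (SE), adjusted p = 0.0011). Slit3 measured 1.25 and 1.23 CPM at E18.5 and 15.1 and 18.4 at P3 (log2 fold change 3.99 ± 0.66 (SE), adjusted p = 0.00109). In each of these 3 genes both P3 plates lay above both E18.5 plates. No difference passed for Sema3a, Sema3f, Sema4d, Nrp2, Plxna2, Plxna4, Ntng2, Slit1 or Slit2, whose log2 fold changes ran from -0.50 to 0.43.

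P3 plates are of the SS2_15 series, so stage and series cannot be told apart here and no within-series value exists. Glial markers were higher at P3 (293 and 344 CPM) than at E18.5 (92.5 and 94.8 CPM). In the 50% of SGN-like wells with the least glial marker, Plxnc1 (-0.39, adjusted p = 0.639) and Nrp1 (-1.11, adjusted p = 0.162) lost their calls, and Dcc, Plxnb1, Sema4c, Ntng1, Sema3d and Slit3 kept theirs. By per-well limma Ntng1 did not pass (0.61, adjusted p = 0.346). Slit3 measured 98.3 to 137 CPM in glia-like sums. With mixed wells kept, Slit3 (0.88, adjusted p = 0.375) and Nrp1 (-0.23, adjusted p = 0.52) did not pass. Nrp1 and Plxnc1 were lost without replicate 2 of P3 (0.0946 and 0.0651) and without replicate 1 of E18.5 (0.118 and 0.0684), and Plxnc1 also without replicate 2 of E18.5 (0.0876). Without replicate 1 of P3 the log2 fold changes were -2.08 for Sema4c and -1.90 for Nrp1, and without replicate 2 Sema4c was at -4.21.

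Within the SS2_20 plates alone, the 2 later plates (E16.5 and E17.5) were set against the 4 earlier ones (E14.5 and E15.5) in each class. edgeR called 0 genes of any kind in neurons, glia or mesenchyme, and 0 for the difference between the glial and the neuronal change. The unadjusted p was under 0.05 for 13 of 47 guidance genes in SGN-like sums (12.3% of all genes), 7 of 50 in glia-like sums (8.60%), 13 of 47 in OM-like sums (7.91%) and 11 of 50 for the difference of changes (6.08%). DESeq2 called 6, 3, 2 and 4 guidance genes, beside 495 of 14306, 320 of 16154, 222 of 14106 and 196 of 16787 genes in all. limma called 2, 0, 0 and 6, beside 603, 25, 33 and 685 in all.

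In SGN-like sums the smallest unadjusted p was that of Plxna2, at 67.5, 62.6, 57.6 and 65.9 CPM in the earlier plates and 20.2 and 11.5 CPM in the later ones (log2 fold change -1.999 ± 0.27 (SE), adjusted p = 0.163). In glia-like sums it was that of Sema5a, a semaphorin with thrombospondin repeats, at 6.38 and 3.82 CPM at E14.5, 5.31 and 7.43 at E15.5, 14.4 at E16.5 and 35.5 at E17.5 (log2 fold change 2.13 ± 0.42 (SE), adjusted p = 0.2). In OM-like sums it was that of Slit2, at 60.9 and 51.8 CPM at E14.5, 54.6 and 27.0 at E15.5, 167.5 at E16.5 and 123 at E17.5 (log2 fold change 1.61 ± 0.31 (SE), adjusted p = 0.279). In each of these 3 genes the later plates did not overlap the earlier ones. These genes were chosen after their values were seen. E17.5 glia-like sums also carried more of the mesenchyme markers (5003 CPM, against 1524 to 2149.8 in the other 5 plates), and Sema5a measured 207 to 357 CPM in OM-like sums. Its part in the glial value was not tested.

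Glia-like against SGN-like sums in the same 6 plates gave the widest contrast. Glia held Plxnb3, Slit3, Sema3b, Sema3c and Plxnd1, and neurons held Unc5b, Unc5c, Unc5d, Ntng2, Slit1, Sema3a and Sema3f. Of 48 tested guidance genes 41 passed, 12 higher and 29 lower in glia. That is 85.4% of them, where 56.5% of all 14664 genes passed (30.1% higher and 26.4% lower). Robo3 and Robo4 were too low to test. The groups did not overlap for 32 of the 41, and the share of all genes without overlap was not computed. Of 49 pathway genes 16 were higher and 22 lower.

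Plxnb3, a plexin of the B class, measured 100.2 and 102 CPM at E14.5, 162 and 169 at E15.5, 132 at E16.5 and 235 at E17.5 in glia-like sums and 0.0521 to 2.32 CPM in SGN-like sums (log2 fold change 8.32 ± 0.92 (SE), adjusted p = 5.51e-06). Slit3, a secreted Robo ligand, measured 98.3 and 124 CPM at E14.5, 134 and 119 at E15.5, 119 at E16.5 and 137 at E17.5, against 0.0633 to 2.90 CPM in SGN-like sums (log2 fold change 6.46 ± 0.49 (SE), adjusted p = 1.75e-07). Sema3b (69.8 to 184 CPM against 0.659 to 8.54, log2 fold change 4.82 ± 0.62 (SE), adjusted p = 2.02e-05) and Plxnd1, best known as a receptor in blood vessels (54.9 to 80.4 against 0 to 13.5, log2 fold change 5.23 ± 1.23 (SE), adjusted p = 0.00265), were higher in glia as well. Ntn5 was called (log2 fold change 6.15 ± 2.10 (SE), adjusted p = 0.0233) at low levels of 8.13 and 0.5997 CPM at E14.5, 3.94 and 1.003 at E15.5, 0.0755 at E16.5 and 2.92 at E17.5, with 0 to 0.426 CPM in neurons, so the groups overlapped. Slit2 (50.6 to 92.1 CPM in glia, 15.8 to 41.9 in neurons, log2 fold change 1.49 ± 0.37 (SE), adjusted p = 0.00347) and Nrp1 (132 to 195 in glia, 35.9 to 109 in neurons, log2 fold change 1.06 ± 0.30 (SE), adjusted p = 0.00861) were higher, and Sema3g, Sema3c, Ntn4, Sema5b and Plxnb2 gave log2 fold changes from 0.61 to 6.03.

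Unc5d measured 27.3 and 62.8 CPM at E14.5, 123 and 150.4 at E15.5, 152 at E16.5 and 271 at E17.5 in SGN-like sums and 0 to 1.91 CPM in glia-like sums (log2 fold change -8.11 ± 0.72 (SE), adjusted p = 8.16e-07). Unc5c measured 278 and 319.6 CPM at E14.5, 304 and 322 at E15.5, 238 at E16.5 and 153.04 at E17.5 in neurons, and 0.423 to 6.87 CPM in glia (log2 fold change -7.18 ± 0.72 (SE), adjusted p = 2.29e-06). Of the 6 netrin receptors 5 were lower in glia, Dcc among them (22.5 to 147 against 0.283 to 9.13 CPM, log2 fold change -3.80 ± 0.69 (SE), adjusted p = 0.000411). Ntng2 measured 21.1 and 26.5 CPM at E14.5, 22.3 and 25.4 at E15.5, 40.6 at E16.5 and 41.1 at E17.5 in neurons and 0 to 0.772 CPM in glia (log2 fold change -7.83 ± 1.10 (SE), adjusted p = 4.62e-05). Ntng1, in contrast, was present in both classes. It measured 137 and 147 CPM at E14.5, 273 and 262 at E15.5, 269 at E16.5 and 237 at E17.5 in glia. In neurons it measured 138 and 167 CPM at E14.5, 125 and 148 at E15.5, 131 at E16.5 and 97.2 at E17.5, and the difference did not pass (log2 fold change 0.65 ± 0.36 (SE), adjusted p = 0.135).

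Among neuronal ligands, Sema3a (109 to 322 CPM against 0 to 10.98 in glia, log2 fold change -5.37 ± 0.68 (SE), adjusted p = 1.98e-05), Sema3f (14.4 to 31.6 against 0.0338 to 2.66, log2 fold change -4.73 ± 0.69 (SE), adjusted p = 6.25e-05) and Slit1 (8.53 to 48.0 against 0 to 0.623, log2 fold change -5.60 ± 1.12 (SE), adjusted p = 0.000819) did not overlap between classes. Plxna2 (log2 fold change -2.29 ± 0.32 (SE), adjusted p = 5.19e-05), Plxna4 (log2 fold change -1.90 ± 0.60 (SE), adjusted p = 0.0153) and Plxnc1 (log2 fold change -1.89 ± 0.46 (SE), adjusted p = 0.00344) were lower in glia, and 10 of the 13 membrane-bound semaphorins were. Sema4d (24.6 to 68.0 CPM in glia, 15.7 to 31.9 in neurons) and Nrp2 (25.7 to 47.5 against 1.19 to 91.7) did not pass. The remaining called genes, Unc5b, Sema4a, Sema6b, Robo1, Sema7a, Sema4g, Sema4f, Sema6c, Sema3e, Robo2, Plxna3, Plxna1, Neo1, Sema5a, Sema6a, Sema4b, Plxnb1, Ntn3 and Sema4c, had log2 fold changes from -5.63 to -0.66. Without single plates, the call of Ntn5 was lost (replicate 1 of E14.5, adjusted p = 0.086, replicate 1 of E15.5, 0.0953, and E17.5, 0.0904), with log2 fold changes from 4.69 to 7.85 (the highest without replicate 3 of E16.5, and 7.29 without replicate 2 of E15.5). By per-well limma Nrp1 (0.82, adjusted p = 0.0662) and Ntn5 (0.10, adjusted p = 0.0798) did not pass. Plxna4 was lost without replicate 1 of E14.5 (0.0501). Without that plate the log2 fold changes were 9.07 for Plxnb3 and -8.69 for Ntng2, and without E17.5 that of Unc5c was -7.86.

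**Figure D3:**
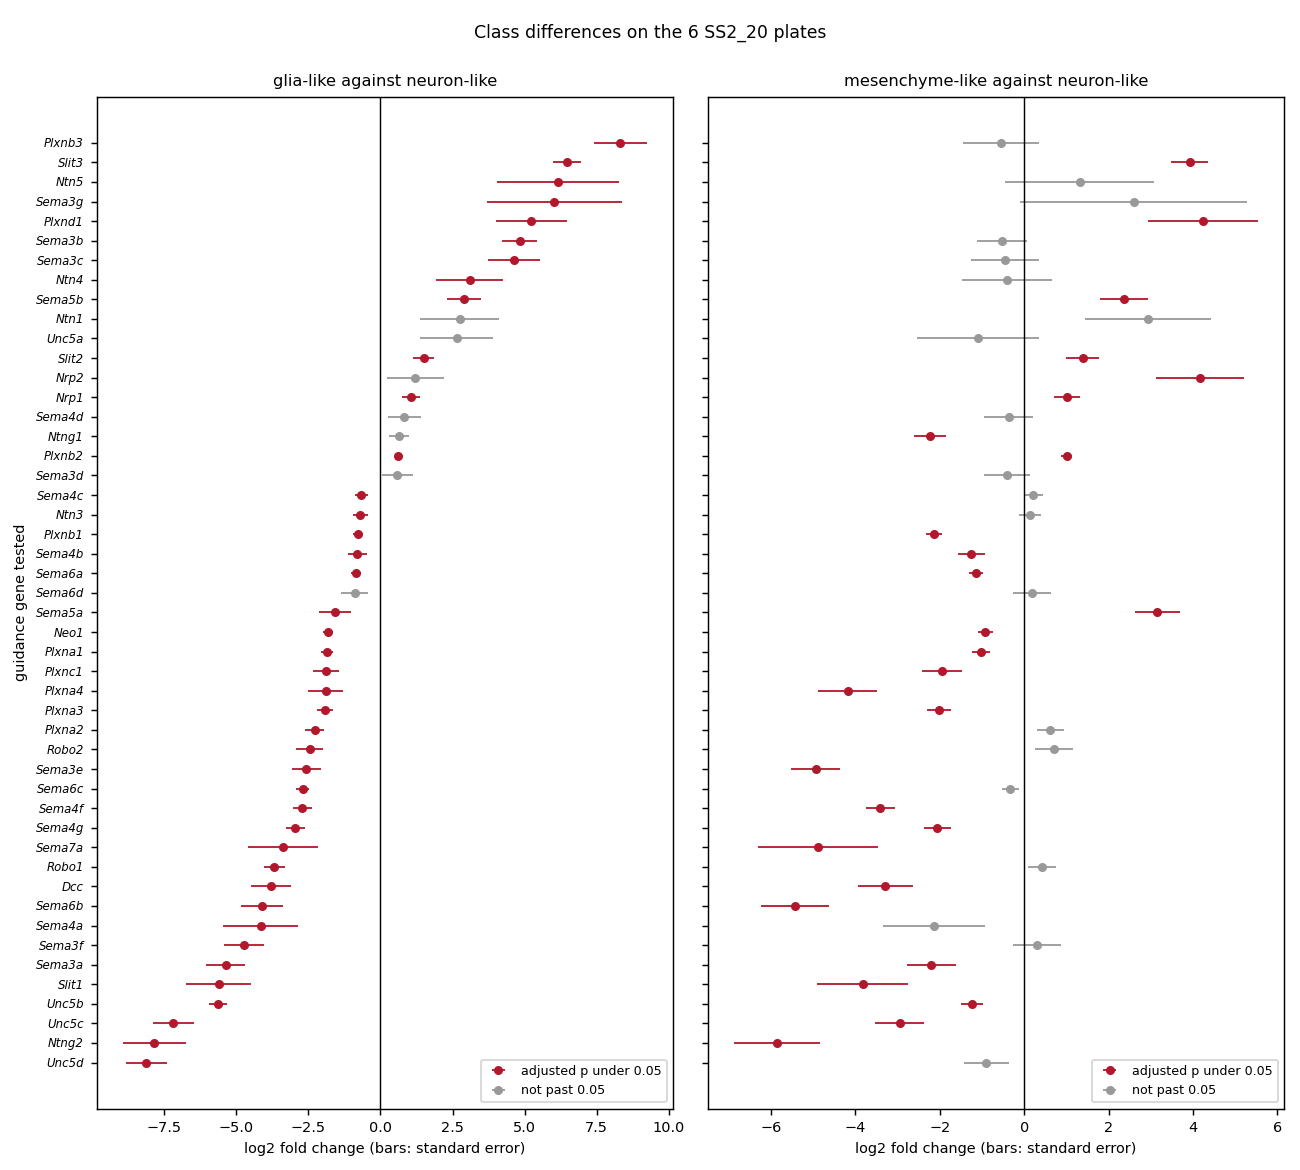
Log2 fold change with its SE (horizontal axis) of the 48 tested guidance genes (rows) for glia-like and OM-like against SGN-like sums in the 6 SS2_20 plates. Red points passed an adjusted p of 0.05 and grey points did not. Plxnb3 and Slit3 lie far on the glial side, and Unc5d, Ntng2 and Unc5c far on the neuronal side of the glial comparison.

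Promoters of 41 of the 50 genes were listed in RefSeq (GRCm38.p6). The 250 bases before the start site listed in RefSeq are shown for Plxnb3 (chrX:73756853-73757102, plus strand), the gene furthest on the glial side, and for Slit3 (chr11:35121206-35121455, plus strand), the next one. Capitals mark the SOX core ACAAAG (or CTTTGT on the other strand) and the E-box CAGCTG, which is its own reverse complement and does not overlap the SOX core here. The gene bodies lie at chromosome X, 73757090 to 73772514, and chromosome 11, 35121224 to 35708507, in GRCm38. By these positions, most of the Slit3 window and the end of the Plxnb3 window lie inside the gene body.
Plxnb3: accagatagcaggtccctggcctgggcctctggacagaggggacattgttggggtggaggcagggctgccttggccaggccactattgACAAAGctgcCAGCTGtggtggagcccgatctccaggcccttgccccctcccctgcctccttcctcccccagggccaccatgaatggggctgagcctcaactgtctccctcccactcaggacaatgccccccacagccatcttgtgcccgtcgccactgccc
Slit3: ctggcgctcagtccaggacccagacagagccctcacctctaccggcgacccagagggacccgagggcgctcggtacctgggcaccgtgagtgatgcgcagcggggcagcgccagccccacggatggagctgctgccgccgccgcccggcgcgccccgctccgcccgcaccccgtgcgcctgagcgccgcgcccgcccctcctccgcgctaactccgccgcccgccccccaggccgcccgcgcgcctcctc
The SOX core was in 5 of the 41 genes (Plxnb3, Sema3a, Sema3d, Sema4f and Sema6d), where a gene counted if any of its listed starts had the motif. It was in 16.46% of all 32851 listed promoters over the same length, counted singly, so the shares of genes and of promoters are not alike. The SOX core was in 1 of 11 genes called higher in glia and in 2 of 22 called higher in neurons. The E-box was in 9 of the 41 (and in 4271 of all 32851), 3 of the 11 and 4 of the 22. Slit3 held neither motif in this window.

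OM-like sums in the same plates were marked by Nrp2, Sema5a and, against glia, by Unc5b, Unc5c, Unc5d and Sema3f. Against SGN-like sums 28 of 48 guidance genes passed, 8 higher and 20 lower. That is 58.3% of them, where 57.0% of all genes passed (28.8% higher and 28.2% lower), so the share was that of all genes. Against glia-like sums 25 passed, 16 higher and 9 lower, 52.1% where 26.3% of all genes did (12.4% higher and 13.9% lower). Pathway genes were called higher in 9 and lower in 24 of 49 against neurons, and in 8 and 21 against glia.

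Nrp2, the neuropilin of Sema3f, measured 265 and 264 CPM at E14.5, 473 and 348 at E15.5, 259.6 at E16.5 and 72.4 at E17.5 in OM-like sums. In neurons it measured 91.7 and 57.1 CPM at E14.5, 1.35 and 1.19 at E15.5, 3.35 at E16.5 and 11.8 at E17.5, below the OM-like level of the same plate in every plate (log2 fold change 4.16 ± 1.04 (SE), adjusted p = 0.00408). Against glia (25.7 to 47.5 CPM) it was higher too (log2 fold change 2.95 ± 0.90 (SE), adjusted p = 0.0286). Sema5a measured 280.4 and 266 CPM at E14.5, 357 and 304 at E15.5, 207 at E16.5 and 291 at E17.5, with 13.7 to 56.0 CPM in neurons and 3.82 to 35.5 in glia (against glia, log2 fold change 4.73 ± 0.59 (SE), adjusted p = 6.9e-05). Slit3 lay between the classes at 28.4 and 30.8 CPM at E14.5, 28.1 and 29.5 at E15.5, 12.3 at E16.5 and 12.3 at E17.5 (against neurons, log2 fold change 3.93 ± 0.44 (SE), adjusted p = 6.57e-06, and against glia, log2 fold change -2.54 ± 0.40, adjusted p = 0.000442). Plxnd1 varied between plates (10.2 and 12.1 CPM at E14.5, 8.14 and 105 at E15.5, 33.1 at E16.5 and 43.4 at E17.5, against neurons log2 fold change 4.24 ± 1.30 (SE), adjusted p = 0.0133). Nrp1 (80.8 to 228 CPM) and Slit2 (27.0 to 167.5 CPM) were higher than in neurons (log2 fold change 1.01 ± 0.31 (SE), adjusted p = 0.0123, and for Slit2 log2 fold change 1.38 ± 0.38, adjusted p = 0.00713). For neither did the difference from glia pass.

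Against neurons the lowest log2 fold changes were those of Ntng2, Sema6b and Sema3e. Ntng2 measured 0.455 and 0.0804 CPM at E14.5, 0.263 and 0 at E15.5, 1.504 at E16.5 and 4.44 at E17.5 in OM-like sums (log2 fold change -5.86 ± 1.02 (SE), adjusted p = 0.000279). Sema6b measured 0.303 and 0.643 CPM at E14.5, 2.76 and 1.37 at E15.5, 0.279 at E16.5 and 0 at E17.5, with 13.3 to 30.9 CPM in neurons (log2 fold change -5.43 ± 0.80 (SE), adjusted p = 6.86e-05). Sema3e measured 16.1 and 9.19 CPM at E14.5, 6.70 and 19.5 at E15.5, 7.80 at E16.5 and 2.70 at E17.5, with 136 to 699 CPM in neurons (log2 fold change -4.94 ± 0.58 (SE), adjusted p = 1.01e-05). Plxna4, a receptor for Sema3a and Sema6a, was low in OM-like sums except at E17.5 (9.76 and 5.52 CPM at E14.5, 0.788 and 2.98 at E15.5, 14.04 at E16.5 and 55.0 at E17.5, against neurons log2 fold change -4.19 ± 0.70 (SE), adjusted p = 0.000209). Slit1 (0 to 4.01 CPM, log2 fold change -3.83 ± 1.08 (SE), adjusted p = 0.00811), Dcc (2.87 to 15.8, log2 fold change -3.29 ± 0.66 (SE), adjusted p = 0.000804), Ntng1 (6.57 to 62.7, log2 fold change -2.24 ± 0.37 (SE), adjusted p = 0.000205), Sema3a (34.5 to 68.6, log2 fold change -2.20 ± 0.58 (SE), adjusted p = 0.00573) and Plxnc1 (3.28 to 16.3, log2 fold change -1.95 ± 0.47 (SE), adjusted p = 0.00326) were lower than in neurons. Plxna2 and Sema3f, in contrast, did not pass against neurons (log2 fold changes 0.62 ± 0.31 and 0.30 ± 0.57).

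Against glia, Unc5d was the highest (45.3 and 30.5 CPM at E14.5, 87.2 and 86.5 at E15.5, 62.2 at E16.5 and 21.6 at E17.5, log2 fold change 7.22 ± 0.71 (SE), adjusted p = 1.16e-05), and Unc5b and Unc5c were higher as well (log2 fold changes 4.39 ± 0.29 and 4.23 ± 0.63). Sema3f measured 40.3 and 47.2 CPM at E14.5, 29.7 and 29.6 at E15.5, 36.8 at E16.5 and 17.3 at E17.5 in OM-like sums (log2 fold change 5.04 ± 0.68 (SE), adjusted p = 0.000135). Plxna2 (log2 fold change 2.90 ± 0.33 (SE), adjusted p = 3.3e-05) and Sema3a (log2 fold change 3.17 ± 0.62 (SE), adjusted p = 0.00223) were higher, and Robo1 and Robo2, the 2 Robo receptors tested, were higher too. The lowest were Plxnb3, Sema3b and Sema3c, a ligand of both neuropilins. Plxnb3 measured 1.06 and 0.0536 CPM at E14.5, 0 and 3.20 at E15.5, 0 at E16.5 and 0 at E17.5 (log2 fold change -8.87 ± 0.95 (SE), adjusted p = 2.21e-05). Sema3b measured 2.18 and 4.63 CPM at E14.5, 2.89 and 0.114 at E15.5, 1.78 at E16.5 and 5.70 at E17.5 (log2 fold change -5.35 ± 0.64 (SE), adjusted p = 5.1e-05). Sema3c measured 16.9 and 5.17 CPM at E14.5, 5.91 and 7.55 at E15.5, 7.41 at E16.5 and 0.386 at E17.5 in OM-like sums. In glia it measured 117 and 140.2 CPM at E14.5, 183 and 176 at E15.5, 162 at E16.5 and 217 at E17.5 (log2 fold change -5.09 ± 0.88 (SE), adjusted p = 0.000914). Ntng1 (log2 fold change -2.89 ± 0.38 (SE), adjusted p = 0.000117) and Plxna4 (log2 fold change -2.29 ± 0.67 (SE), adjusted p = 0.0234) were lower as well.

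Several OM-like values turned on single plates. Against neurons, Plxnd1 did not pass without replicate 2 of E15.5, its highest plate (3.32, adjusted p = 0.0518), and its log2 fold change was 3.54 without replicate 3 of E16.5, 3.59 without E17.5, and 5.66 and 5.31 without either E14.5 plate. Nrp1 did not pass without replicate 1 of E15.5 (0.053) or by per-well limma (0.0767). The log2 fold change of Nrp2 was 3.43 and 3.57 without either E15.5 plate, and 5.18 and 5.02 without either E14.5 plate. Without E17.5 it was -4.92 for Plxna4, -6.62 for Ntng2 and -3.19 for Slit1. Without replicate 2 of E14.5 Ntng2 was at -5.27, and without replicate 2 of E15.5 Slit1 was at -4.42. Against glia, Nrp2 was lost without either E15.5 plate and without replicate 3 of E16.5 (0.0643, 0.0561 and 0.0738). Plxna4 was lost without either E15.5 plate, replicate 3 of E16.5 or either E14.5 plate (0.0507, 0.087, 0.0635, 0.0538 and 0.0909), and was at -3.04 without E17.5. Without E17.5, Sema3c was at -4.45 and Unc5d at 7.97, and without replicate 2 of E15.5 Plxnb3 was at -10.10.

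At E18.5, cochlear HCs (IHC-like and OHC-like) were set against SGN-like sums of the same plates. HCs held Sema5b, Plxnb2, Unc5a and Nrp2, and all but lacked Unc5d, Dcc, Ntng1 and Slit1. Of 49 tested guidance genes 28 passed, 5 higher and 23 lower, 57.1% of them, where 42.4% of all 17221 genes passed (17.8% higher and 24.6% lower), and the groups did not overlap for 27 of the 28. The exception was Robo2, in which IHC-like and OHC-like sums differed. Here, too, the share of all genes without overlap was not computed. Per-well limma gave 14 higher and 19 lower, beside 8141 genes called in all, with the median of all genes at 0.20. Of the 49 pathway genes 6 were higher and 27 lower. These sums rest on 17 IHC-like and 12 OHC-like wells.

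Sema5b measured 652 and 472 CPM in IHC-like and 784 and 567 in OHC-like, against 2.57 and 2.33 CPM in SGN-like sums (log2 fold change 7.82 ± 0.97 (SE), adjusted p = 8.4e-06), and had counts in 16 of 17 IHC-like, 12 of 12 OHC-like and 29 of 248 SGN-like wells (median counts per well 349003, 340241 and 341210). Sema5b encodes a membrane semaphorin with thrombospondin repeats, known to repel axons in the retina. Unc5a, a repulsive netrin receptor, measured 65.5 and 52.7 CPM in IHC-like and 59.0 and 25.6 in OHC-like and 6.42 and 4.70 in neurons (log2 fold change 3.03 ± 0.89 (SE), adjusted p = 0.0123). Nrp2 measured 61.0 and 47.0 CPM in IHC-like and 59.8 and 45.7 in OHC-like and 24.3 and 22.0 in neurons (log2 fold change 1.06 ± 0.33 (SE), adjusted p = 0.0183), whereas Nrp1 was lower in HCs (6.42 and 0.688 CPM in IHC-like and 2.39 and 0.801 in OHC-like, log2 fold change -3.37 ± 0.55 (SE), adjusted p = 0.000162). Plxnb3 had 77 counts over the HC sums and 3 over the neuron sums, a ratio of 242 between their CPM (95% interval 79.8 to 1200, counting error only). Glial markers summed to 852 and 937 CPM in IHC-like and 319 and 243 in OHC-like sums, against 92.5 and 94.8 in neurons. HC-like wells were not screened for glial markers, while SGN-like wells were. The part of glial reads in the Plxnb3 value and in the other HC values was not tested. With mixed wells kept among the neurons, Plxnb3 was lower in HCs (-1.87, adjusted p = 0.147).

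The receptors Unc5d and Dcc and the netrin-G gene Ntng1 were neuronal. Unc5d had 7 counts in all HC sums (0.724 CPM) against 215 CPM in neurons, with counts in 3 of 17 IHC-like, 0 of 12 OHC-like and 242 of 248 SGN-like wells (adjusted p = 1.19e-08). Ntng1 had 5 counts (0.517 CPM against 119, adjusted p = 1.54e-09). Dcc had 3 counts, a ratio of 0.00373 to neurons (95% interval 0.000769 to 0.0109), and Slit1 3 counts, a ratio of 0.0162 (0.00335 to 0.0476). Ntng2, unlike Ntng1, was in both (52.6 and 44.9 CPM in IHC-like, 39.5 and 72.9 in OHC-like and 38.1 and 32.3 in SGN-like) and did not pass (log2 fold change 0.41 ± 0.27 (SE), adjusted p = 0.255). Lower in HCs were Sema3a, Sema4d, Slit2 and Plxna4. Sema3a measured 18.6 and 38.1 CPM in IHC-like, 21.1 and 48.9 in OHC-like and 85.4 and 90.8 in SGN-like sums (log2 fold change -1.63 ± 0.33 (SE), adjusted p = 0.000908). Sema4d, a ligand of Plxnb1, measured 8.34 and 18.1 CPM in IHC-like, 18.3 and 11.2 in OHC-like and 25.3 and 26.6 in SGN-like sums (log2 fold change -0.99 ± 0.35 (SE), adjusted p = 0.0351). Slit2 measured 0 and 1.60 CPM in IHC-like, 3.19 and 0 in OHC-like and 16.8 and 21.1 in SGN-like sums (log2 fold change -3.83 ± 0.61 (SE), adjusted p = 0.000102). Plxna4 measured 94.98 and 75.0 CPM in IHC-like, 7.58 and 9.61 in OHC-like and 145 and 161 in SGN-like sums, with IHC-like sums nearer to the neurons (log2 fold change -2.68 ± 0.18 (SE), adjusted p = 1.51e-08). Sema3f, Plxna2 and Plxnc1 did not pass (log2 fold changes 0.17, 0.69 and -0.62).

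Leaving out either plate leaves 1 plate per class, which is then assumed to vary like the sums of the other stages and classes in the fit. Unc5a was then lost (0.213 without replicate 1 and 0.158 without replicate 2, as adjusted p), and so were Nrp2 (0.212 and 0.131), Plxnb3 (0.0661 and 0.155) and Sema4d (0.0986 and 0.0616). The log2 fold change of Nrp1 was -4.65 and -2.77, that of Slit2 -8.13 and -7.31, and that of Sema3a -2.28 without replicate 2. Fitted values of Ntng1 (-7.37 and -14.70) and Slit1 (-5.07 and -12.30) moved widely, and both genes kept their calls. By per-well limma the calls of Sema3a (-0.34, adjusted p = 0.6252) and Sema4d (-0.46, adjusted p = 0.338) were lost, and Sema4d also by DESeq2 (0.0637).

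OHC-like and IHC-like cells differed in Robo2, Plxna4 and Plxnd1, among others. The comparison rests on 8 and 4 OHC-like and 5 and 12 IHC-like wells in the E18.5 plates, and 8 of 49 guidance genes passed, 3 higher and 5 lower in OHC-like sums, 16.3% of them, where 5.76% of all genes passed (2.60% higher and 3.16% lower). Per-well limma gave 8 higher and 6 lower, beside 2807 of 17221 genes in all, with the median of all genes at 0.21. Robo2, a slit receptor, measured 0 and 1.15 CPM in IHC-like and 218 and 147 in OHC-like (log2 fold change 7.72 ± 0.55 (SE), adjusted p = 4.76e-06), and had counts in 12 of 12 OHC-like wells, 4 of 17 IHC-like, 12 of 27 vestibular HC-like and 214 of 248 SGN-like wells (median counts per well 340241, 349003, 328992 and 341210). The level in OHC-like sums was above that in neurons (73.6 and 68.4 CPM), and that in IHC-like sums below it. A further 13 HC-like wells, unnamed but scoring higher for IHC (0.47) than OHC (-0.14), held some Robo2 and were not in these sums. Unc5b, a netrin receptor, was higher in OHC-like sums (55.8 and 56.6 CPM in IHC-like and 211 and 167 in OHC-like, log2 fold change 1.70 ± 0.27 (SE), adjusted p = 0.00142), as was Plxna1 (147 and 107 CPM in IHC-like and 265 and 228 in OHC-like, log2 fold change 0.92 ± 0.20 (SE), adjusted p = 0.0142).

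The genes lower in OHC-like sums were mostly plexins. Plxna4 measured 94.98 and 75.0 CPM in IHC-like and 7.58 and 9.61 in OHC-like (log2 fold change -3.39 ± 0.26 (SE), adjusted p = 5.2e-06), and Plxnc1 30.8 and 34.4 CPM in IHC-like and 7.58 and 4.81 in OHC-like (log2 fold change -2.41 ± 0.41 (SE), adjusted p = 0.00289). Plxnd1 measured 41.1 and 42.0 CPM in IHC-like and 0 and 0 in OHC-like, with counts in 11 of 17 IHC-like and 0 of 12 OHC-like wells. Against a floor of 3 counts over the OHC-like sums it was at least 52.2-fold lower there (adjusted p = 0.0252). Sema3d (56.5 and 43.6 CPM in IHC-like and 1.60 and 8.01 in OHC-like, log2 fold change -3.64 ± 0.64 (SE), adjusted p = 0.00331) and Sema3e (50.1 and 34.4 CPM in IHC-like and 23.5 and 10.4 in OHC-like, log2 fold change -1.23 ± 0.30 (SE), adjusted p = 0.0258) were lower too. IHC-like sums carried more of the glial markers (852 and 937 CPM against 319 and 243) and of the mesenchyme markers (872 and 672 against 292 and 393), and Plxnd1 was also called higher in glia than in neurons. Their part in the result was not tested. No difference passed for Nrp1, Nrp2, Plxna2, Sema3a, Sema3f, Sema4d, Ntng1, Ntng2, Slit1, Slit2 or Dcc, and of the pathway genes 2 were higher and 3 lower.

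Without replicate 1 the calls of Sema3d, Unc5b, Plxna1, Plxnc1 and Plxnd1 were lost (adjusted p = 0.141, 0.0554, 0.0882, 0.054 and 0.268), and without replicate 2 those of Plxna1, Plxnc1 and Plxnd1 (0.176, 0.118 and 0.252). Plxnc1 did not pass by per-well limma either (-1.25, adjusted p = 0.0602). Robo2 stayed past the threshold in both (6.92, adjusted p = 0.000615, and 15.60, adjusted p = 0.000519), and Sema3d was at -2.51 and -5.15. The promoter windows of Robo2 (chr16:74411826-74412075, minus strand, with 3 starts listed) and Sema5b (chr16:35541112-35541361, plus strand) are shown as those of the OHC-like and the shared cochlear HC gene. Capitals mark the E-box CAGCTG, in the Robo2 window and not in that of Sema5b, and neither holds the SOX core. Of the 3 Robo2 starts, the window with the most motifs was picked, while Sema5b has 1 listed start. The windows therefore cannot be compared for holding a motif. The gene bodies lie at chromosome 16, 73891839 to 74411825, and chromosome 16, 35541145 to 35664732, in GRCm38. By these positions, most of the Sema5b window lies inside the gene body.
Robo2: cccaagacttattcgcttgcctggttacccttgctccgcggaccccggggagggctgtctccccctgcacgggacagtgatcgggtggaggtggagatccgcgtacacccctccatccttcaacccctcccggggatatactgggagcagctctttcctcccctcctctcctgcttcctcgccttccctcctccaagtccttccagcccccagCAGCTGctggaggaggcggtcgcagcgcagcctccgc
Sema5b: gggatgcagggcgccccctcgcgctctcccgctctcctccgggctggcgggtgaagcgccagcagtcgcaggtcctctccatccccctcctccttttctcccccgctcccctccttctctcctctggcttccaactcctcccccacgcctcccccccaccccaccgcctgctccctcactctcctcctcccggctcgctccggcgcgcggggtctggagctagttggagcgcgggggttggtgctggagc

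HC-like wells with vestibular markers (27 wells) were present in the E18.5 plates although these are labelled as cochlea. Against the cochlear HC sums, 14 of 49 guidance genes passed, 8 higher and 6 lower, 28.6% of them against 12.4% of all genes (7.81% higher and 4.63% lower). Per-well limma gave 5 higher and 12 lower, beside 4885 of 17221 genes in all, with the median of all genes at -0.24. Sema6d measured 21.8 and 18.1 CPM in IHC-like, 9.17 and 8.01 in OHC-like and 144.03 and 191 in vestibular HC-like (log2 fold change 3.66 ± 0.33 (SE), adjusted p = 4.17e-06), with counts in 20 of 27 vestibular HC-like wells. Plxna4 (94.98 and 75.0 CPM in IHC-like, 7.58 and 9.61 in OHC-like and 225 and 229.7 in vestibular HC-like, log2 fold change 3.09 ± 0.18 (SE), adjusted p = 8.57e-08) was the plexin that set vestibular HC-like furthest from OHC-like sums, with IHC-like sums between them. Ntng1 was called at low levels (0 and 0.917 CPM in IHC-like, 0 and 0.801 in OHC-like and 2.87 and 7.58 in vestibular HC-like, log2 fold change 3.63 ± 0.67 (SE), adjusted p = 0.00203), and not by per-well limma (0.24, adjusted p = 0.723).

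In the other direction, Unc5b, Sema3d and Sema5b were lower in vestibular HC-like sums. Unc5b measured 55.8 and 56.6 CPM in IHC-like, 211 and 167 in OHC-like and 9.38 and 5.12 in vestibular HC-like (log2 fold change -3.87 ± 0.29 (SE), adjusted p = 8.09e-07). Sema3d measured 56.5 and 43.6 CPM in IHC-like, 1.60 and 8.01 in OHC-like and 1.30 and 0.819 in vestibular HC-like (log2 fold change -3.79 ± 0.68 (SE), adjusted p = 0.00165). Sema5b measured 652 and 472 CPM in IHC-like, 784 and 567 in OHC-like and 90.6 and 31.3 in vestibular HC-like (log2 fold change -3.34 ± 0.76 (SE), adjusted p = 0.00895). Sema3d was also low in OHC-like sums, so the cochlear mean rested on IHC-like cells. Nrp1 had 0 counts in vestibular HC-like wells, at least 6.01-fold lower than in cochlear HCs at a floor of 3 counts over the sums (adjusted p = 0.0246, cochlear levels 6.42 and 0.688 CPM in IHC-like and 2.39 and 0.801 in OHC-like). Ntng2 (52.6 and 44.9 CPM in IHC-like, 39.5 and 72.9 in OHC-like and 16.9 and 28.3 in vestibular HC-like, log2 fold change -1.21 ± 0.29 (SE), adjusted p = 0.0124) and Plxna1 were lower as well. The remaining calls, Sema3b, Sema3e, Sema4c, Sema4g and Robo1, were higher (log2 fold changes 1.01 to 2.58). Of the pathway genes 11 were higher and 9 lower. Markers of other cells moved with this contrast. Vestibular HC-like sums held 173 and 68.8 CPM of the mesenchyme list (872 and 672 in IHC-like, 292 and 393 in OHC-like), 452 and 453 CPM of the glial list, between IHC-like and OHC-like sums, and 2357 and 1729 CPM of the epithelial list (1044 and 1152 in IHC-like, 1324 and 1493 in OHC-like). Their part in the result was not tested.

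Without replicate 1, Nrp1 (0.274) and Ntng2 (0.0739) no longer passed, and without replicate 2, Nrp1 (0.0517) and Sema3d (-2.79, adjusted p = 0.134) did not. By per-well limma Nrp1 did not pass (adjusted p = 0.0764). Sema3d was at -4.56 without replicate 1, and Ntng1 at 9.39 without replicate 2.

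**Figure D4:**
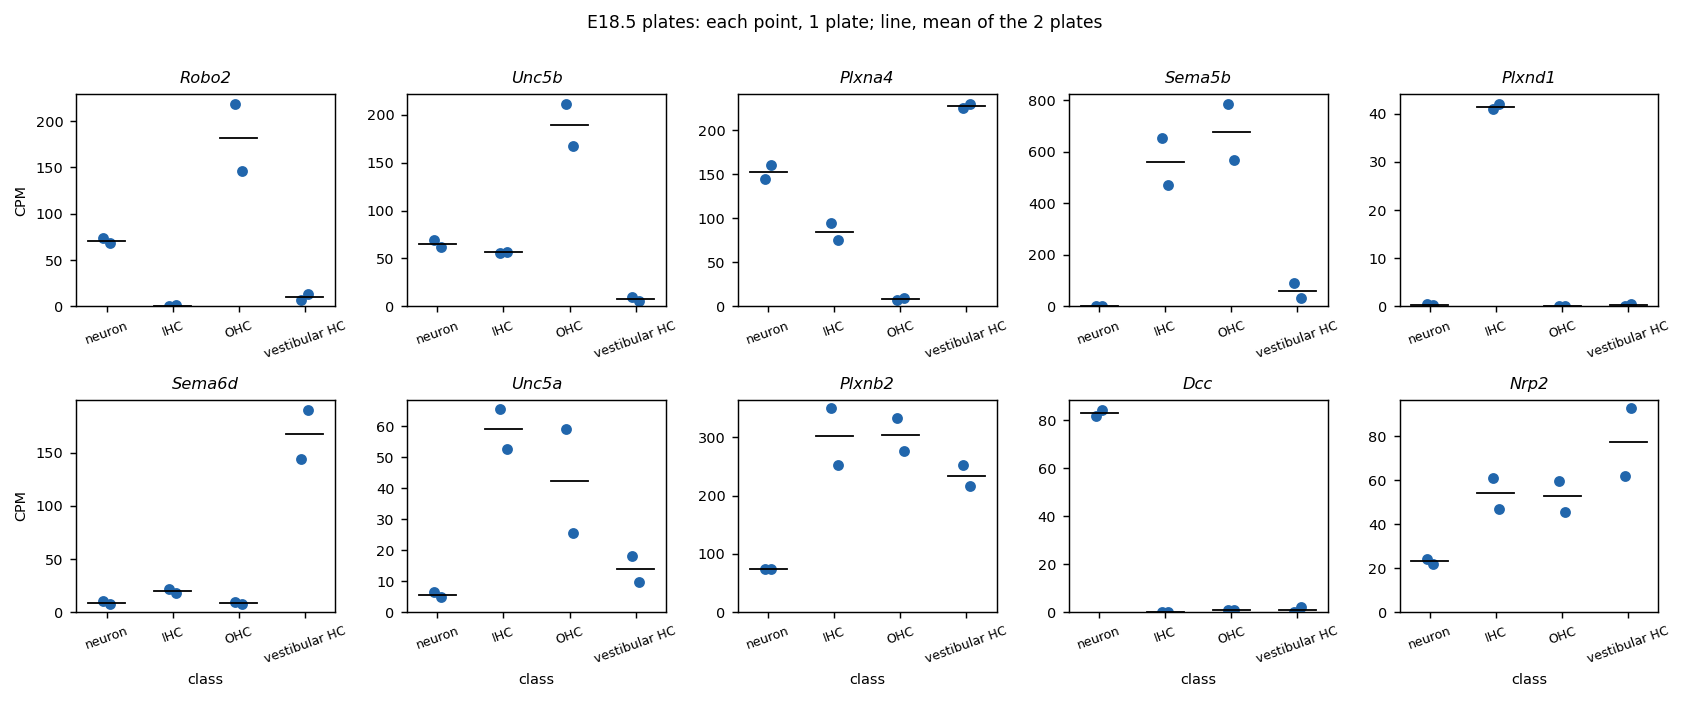
CPM (vertical axis, each panel from 0) of 10 guidance genes in SGN-like, IHC-like, OHC-like and vestibular HC-like sums of the E18.5 plates. Each point is a plate and each short line a mean of 2 plates. Robo2 is at 218 and 147 CPM in OHC-like and at 0 and 1.15 CPM in IHC-like sums, and Sema5b is high in both cochlear HC classes.

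The last comparisons concern SGN subclasses at E18.5 and P3, named as Ia-like, Ib/Ic-like and II-like, with Ib and Ic as 1 class. Clusters under a minimum marker score stayed unnamed and were not compared. Of 364 late SGN-like wells without mixed markers and 714 with them, 192 were Ia-like, 262 Ib/Ic-like and 58 II-like. Clusters with the Ib marker Calb1 among their leading genes (42 wells at E18.5, 120 at P3) stayed unnamed. So did 76 wells at E18.5 led by the II marker Etv4. The share of Ib cells in Ib/Ic-like was not tested. Sema3e was lower and Unc5c, Unc5b and Plxna2 higher in II-like than in type I cells, and Sema3a, Ntng1 and Slit2 were higher in Ib/Ic-like than in Ia-like cells, Ntng2 lower. Most of these calls were lost with the wells of mixed markers left out, which took away 49 of the 58 II-like wells. For II-like against the mean of the type I subclasses, 12 of 46 guidance genes passed, 5 higher and 7 lower, 26.1% of them against 13.1% of all 13925 genes (5.57% higher and 7.55% lower). For Ib/Ic-like against Ia-like, 9 passed, 5 higher and 4 lower, 19.6% against 1.84% of all genes (0.819% higher and 1.02% lower). Ntn4, Robo3, Robo4 and Sema3g were too low to test. Both fits hold the plate as a block, and without the block 5 and 2 guidance genes passed, beside 687 and 52 of all genes. Without it Unc5b, Plxna4, Dcc, Nrp1 and Sema3a lost their II-like calls (adjusted p = 0.103, 0.11, 0.421, 0.069 and 0.0567). Plxna4, Ntng1, Unc5b, Unc5d and Slit2 lost their Ib/Ic-like calls (0.377, 0.0842, 1, 0.105 and 0.0768).

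These sums include wells with mixed markers, since few were free of them, and glial markers summed to 1833 to 5310.5 CPM, lowest in the Ib/Ic-like sums of E18.5 (1833 and 2088) and highest in the II-like sums of that stage (5310.5 and 3590.4). With those wells left out, 4 guidance genes passed for II-like (Sema3e and Robo1 among them) and 1 for Ib/Ic-like (Sema3a). The upward II-like calls of Unc5c (1.36, adjusted p = 0.141), Unc5b (0.96, 0.443), Plxna2 (2.21, 0.121), Ntng2 (1.80, 0.0656) and Nrp1 (0.18, 0.994) were lost, as were the downward ones of Dcc, Plxna4 and Sema3a (0.34, 0.273 and 0.649). For Ib/Ic-like, Ntng1 (3.33, adjusted p = 0.272), Ntng2 (-2.19, 0.123), Slit2, Plxna4, Unc5b and Unc5d (0.724, 0.353, 0.572 and 0.162) were lost. In the 50% of wells with the least glial marker, Nrp1 (0.01, adjusted p = 0.996), Sema3a (-0.21, 0.804), Plxna4 (0.0851) and Dcc (0.139) lost their II-like calls, and Sema3e, Robo1, Unc5c, Unc5b, Plxna2 and Ntng2 kept theirs. There the Ib/Ic-like calls of Plxna4, Unc5b and Slit2 were lost (0.066, 0.237 and 0.248), and those of Sema3a, Ntng1, Ntng2 and Unc5d were kept. Nrp1 measured 132 to 195 CPM in glia-like sums of the SS2_20 plates. Wells numbered 20, 16, 18 and 4 in the II-like sums of the 4 plates, and 19, 12, 15 and 3 of them had mixed markers. A sum needed at least 3 wells for II-like and 5 for the other subclasses. Without mixed wells, the II-like sums of replicate 1 of E18.5 and replicate 2 of P3 therefore fell out. So did the Ia-like sum of replicate 2 of P3. Whether calls were lost through fewer wells and plates or through fewer glial reads was not tested.

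Sema3e measured 415 and 422 CPM at E18.5 and 623 and 552 at P3 in Ia-like, 423 and 423 CPM at E18.5 and 488 and 355 at P3 in Ib/Ic-like, and 101 and 87.9 CPM at E18.5 and 58.0 and 13.1 at P3 in II-like sums. Every II-like plate lay below every type I plate (log2 fold change -3.02 ± 0.42 (SE), adjusted p = 0.00169). Robo1 was at 39.8 and 39.1 CPM at E18.5 and 22.4 and 16.9 at P3 in Ia-like, 104 and 95.5 CPM at E18.5 and 45.8 and 39.8 at P3 in Ib/Ic-like, and 16.9 and 26.9 CPM at E18.5 and 6.54 and 12.3 at P3 in II-like (log2 fold change -1.69 ± 0.22 (SE), adjusted p = 0.00124). Its levels in Ia-like and II-like sums overlapped between stages. Dcc (37.3 and 31.8 CPM at E18.5 and 8.75 and 5.96 at P3 in Ia-like, 61.4 and 66.8 CPM at E18.5 and 13.7 and 13.6 at P3 in Ib/Ic-like, and 14.499 and 22.7 CPM at E18.5 and 0.712 and 0 at P3 in II-like, log2 fold change -2.38 ± 0.57 (SE), adjusted p = 0.0232) was lower at P3 than at E18.5 in each subclass and was lowest in II-like sums within each stage. Plxna1, Sema3a, Plxna4 and Sema4g were lower as well (log2 fold changes -0.87 to -0.64).

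Unc5c measured 63.2 and 54.4 CPM at E18.5 and 28.3 and 15.46 at P3 in Ia-like, 78.1 and 67.5 CPM at E18.5 and 46.5 and 33.7 at P3 in Ib/Ic-like, and 136 and 151.1 CPM at E18.5 and 178 and 162 at P3 in II-like (log2 fold change 1.81 ± 0.26 (SE), adjusted p = 0.0018), highest in all 4 II-like sums. Unc5b, which like Unc5c turns netrin into a repulsive cue, measured 68.4 and 60.6 CPM at E18.5 and 25.8 and 10.6 at P3 in Ia-like, 32.3 and 27.3 CPM at E18.5 and 6.46 and 5.75 at P3 in Ib/Ic-like, and 135.3 and 121 CPM at E18.5 and 48.0 and 46.3 at P3 in II-like (log2 fold change 1.79 ± 0.20 (SE), adjusted p = 0.000563). Plxna2 measured 9.95 and 12.8 CPM at E18.5 and 14.2 and 11.8 at P3 in Ia-like, 28.03 and 32.1 CPM at E18.5 and 18.1 and 14.2 at P3 in Ib/Ic-like, and 43.8 and 58.9 CPM at E18.5 and 47.6 and 79.7 at P3 in II-like (log2 fold change 1.68 ± 0.25 (SE), adjusted p = 0.00235), and again the II-like plates lay above all others. Nrp1 (24.9 and 25.7 CPM at E18.5 and 23.5 and 38.7 at P3 in Ia-like, 18.6 and 22.6 CPM at E18.5 and 20.3 and 18.49 at P3 in Ib/Ic-like, and 48.2 and 39.4 CPM at E18.5 and 31.0 and 51.8 at P3 in II-like, log2 fold change 0.74 ± 0.18 (SE), adjusted p = 0.0234) and Ntng2 (log2 fold change 1.04 ± 0.19 (SE), adjusted p = 0.00604) were higher in II-like sums, and Plxna4 (log2 fold change -0.72 ± 0.10 (SE), adjusted p = 0.00179) and Sema3a (log2 fold change -0.79 ± 0.21 (SE), adjusted p = 0.0338) lower. Nrp2, Plxnc1, Sema3f, Sema4d, Ntng1, Slit1 and Slit2 did not pass. Of the pathway genes 5 were higher and 9 lower.

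Sema3a was the widest difference between type I subclasses, at 19.3 and 16.2 CPM at E18.5 and 14.2 and 19.8 at P3 in Ia-like, 187 and 194 CPM at E18.5 and 123 and 106 at P3 in Ib/Ic-like, and 38.4 and 27.4 CPM at E18.5 and 39.1 and 21.4 at P3 in II-like, so that every Ib/Ic-like plate lay above every Ia-like one (log2 fold change 3.10 ± 0.25 (SE), adjusted p = 0.000559). The netrin-G genes went in opposite directions. Ntng1 measured 72.2 and 75.8 CPM at E18.5 and 10.3 and 14.49 at P3 in Ia-like, 236 and 278 CPM at E18.5 and 238 and 244 at P3 in Ib/Ic-like, and 153.3 and 105 CPM at E18.5 and 65.7 and 35.8 at P3 in II-like (log2 fold change 3.06 ± 0.48 (SE), adjusted p = 0.0121). Ntng2 measured 41.6 and 30.8 CPM at E18.5 and 59.7 and 53.6 at P3 in Ia-like, 11.1 and 8.20 CPM at E18.5 and 8.70 and 8.33 at P3 in Ib/Ic-like, and 34.1 and 42.6 CPM at E18.5 and 54.3 and 48.1 at P3 in II-like (log2 fold change -2.31 ± 0.24 (SE), adjusted p = 0.00141). Slit2, the secreted Robo ligand, measured 11.3 and 15.4 CPM at E18.5 and 5.77 and 5.15 at P3 in Ia-like, 48.1 and 54.9 CPM at E18.5 and 29.1 and 26.3 at P3 in Ib/Ic-like, and 15.4 and 10.7 CPM at E18.5 and 7.12 and 24.6 at P3 in II-like (log2 fold change 2.14 ± 0.41 (SE), adjusted p = 0.0314). Robo1 (log2 fold change 1.24) and Plxna4 were higher too. Plxna4 measured 172 and 149 CPM at E18.5 and 107 and 95.6 at P3 in Ia-like, 298 and 302 CPM at E18.5 and 166.5 and 139.2 at P3 in Ib/Ic-like, and 131 and 150.0 CPM at E18.5 and 78.9 and 82.3 at P3 in II-like (log2 fold change 0.76 ± 0.11 (SE), adjusted p = 0.0103).

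Unc5b (log2 fold change -1.27 ± 0.24 (SE), adjusted p = 0.0317), Unc5d and Neo1 were lower in Ib/Ic-like sums, so that 3 of the 6 netrin receptors were and none was higher. Unc5d measured 182 and 206 CPM at E18.5 and 173 and 140.3 at P3 in Ia-like, 101 and 91.3 CPM at E18.5 and 101 and 99.1 at P3 in Ib/Ic-like, and 156 and 160.2 CPM at E18.5 and 155 and 86.5 at P3 in II-like (log2 fold change -0.80 ± 0.15 (SE), adjusted p = 0.0315). Nrp1, Nrp2, Plxna2, Plxnc1, Sema3f, Sema4d, Slit1 and Dcc did not pass. Sema4d measured 25.7 and 23.9 CPM at E18.5 and 4.68 and 3.58 at P3 in Ia-like, 38.7 and 39.1 CPM at E18.5 and 38.4 and 40.3 at P3 in Ib/Ic-like, and 25.4 and 23.5 CPM at E18.5 and 5.96 and 10.2 at P3 in II-like (log2 fold change 2.01 ± 0.50, adjusted p = 0.0901). Of the pathway genes 1 was higher and 0 lower (edgeR).

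In the Ib/Ic-like comparison Slit2, Unc5b, Unc5d and Plxna4 were lost without replicate 1 of P3 (adjusted p = 0.206, 0.194, 0.198 and 0.0745), without replicate 1 of E18.5 (0.209, 0.151, 0.191 and 0.0987) and without its replicate 2 (0.124, 0.196, 0.23 and 0.103). Ntng1 was lost without replicate 1 of P3 (0.0904) or replicate 2 of E18.5 (0.0564). Sema3a and Ntng2 kept their calls without any 1 plate. In the II-like comparison Nrp1 was lost without replicate 1 of P3 (0.0649) and either E18.5 plate (0.145 and 0.0839). There, too, calls were lost for Sema3a without either E18.5 plate (0.118 and 0.129), Dcc without replicate 1 of P3 (0.13) or of E18.5 (0.086), and Ntng2 without replicate 1 of P3 (0.0505), and the log2 fold change of Dcc was -3.19 without replicate 2 of E18.5.

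**Figure D5:**
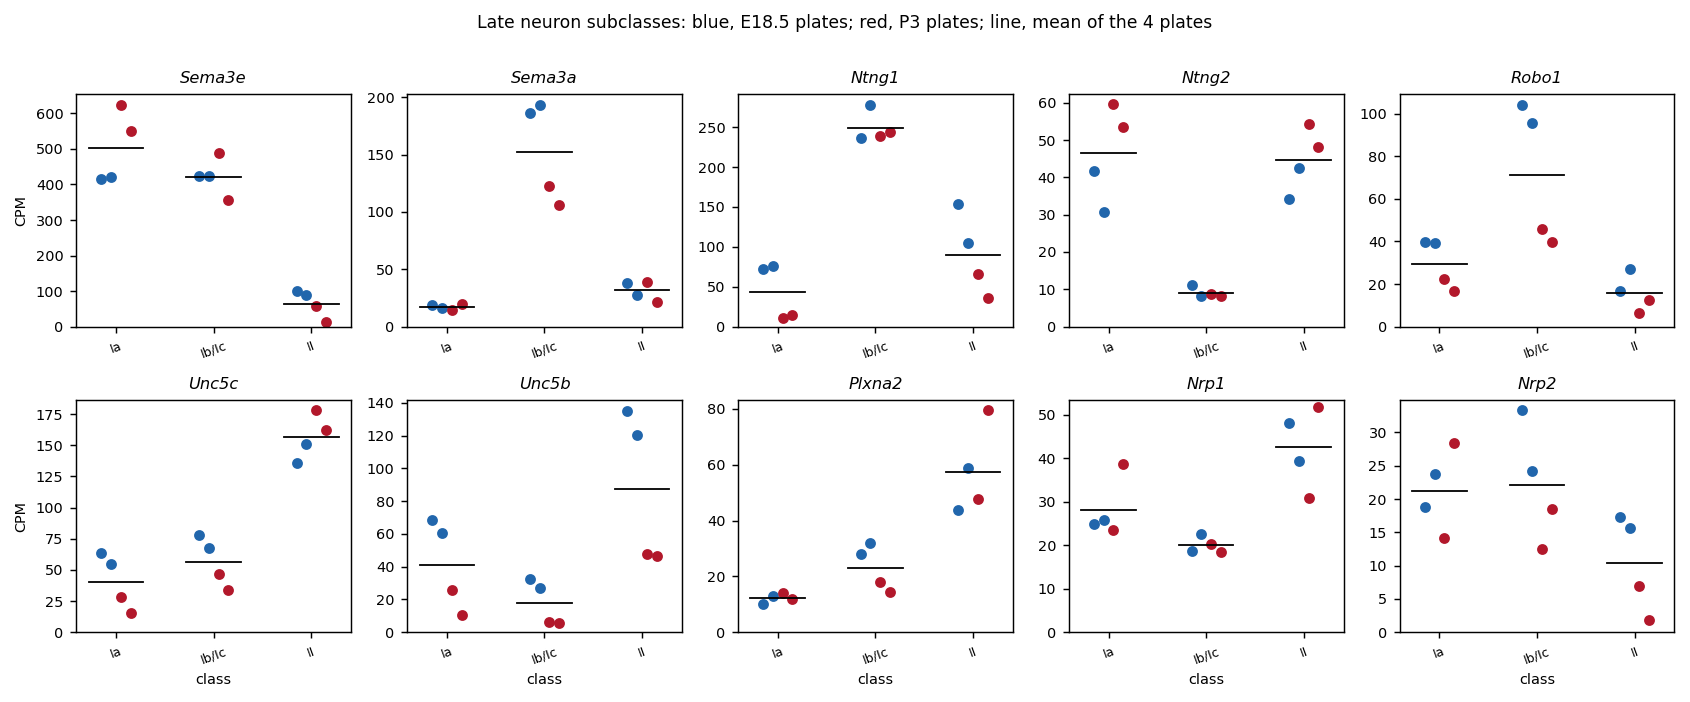
CPM (vertical axis, each panel from 0) of 10 guidance genes in Ia-like, Ib/Ic-like and II-like sums. Each point is a plate, blue for E18.5 and red for P3, and each short line is a mean of 4 plates. Sema3e is lowest and Unc5c highest in II-like sums, and Sema3a and Ntng1 are high in Ib/Ic-like sums.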

How the data were processed

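Sorted reporter-positive cells of the mouse cochlea were measured by Smart-seq2, with 12 plates (4608 wells) assigned to 6 stages. Per the methods and processing notes, the authors mapped reads to mm10 with ERCC spike-ins (92 sequences) by STAR in 2-pass mode and kept uniquely mapped reads. The deposited table holds their read counts per gene and well, not normalized, without molecule barcodes. Whether strand was used is not given in the sources used here, so reads of Plxna4 and of the antisense gene Plxna4os1 cannot be told apart. A further 384 wells of a plate without a sample were not used.

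Wells with over 1000 genes and under 5% ERCC counts were kept (4226), as in the study. Wells were clustered by stage, E17.5 and E18.5 together, with scanpy 1.11.5 and leidenalg 0.10.2 (python 3.11.15). Settings were 2000 variable genes, 30 principal components, 30 neighbours, resolution 1 and seed 0. Guidance and pathway genes were kept out of the features. HC-like wells of E18.5 were clustered again with 15 components and 10 neighbours. SGN-like wells of E18.5 and of P3 were clustered again for the subclasses, there also without the genes that follow Sox10 (r above 0.3). No doublet caller was run. SGN-like wells whose summed glial markers exceeded 5% of their own summed neuron markers were treated as mixed. So were glia-like wells whose neuron markers exceeded 20% of their own glial markers. Mixed wells were left out, except in the late SGN subclasses. HC-like and OM-like wells were not screened for mixed markers. The naming rule, its minimum scores and these limits were set after cluster tables and marker levels were seen, and before any guidance gene was tested.

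Counts were summed per class and plate (1248105 to 97436775 counts a sum). The sums were scaled by TMM, filtered by filterByExpr (minimum count 10, total 15) and fitted by glmQLFit and glmQLFTest of edgeR 4.0.16 in R 4.3.3, with p-values adjusted by Benjamini-Hochberg over all genes. Stage comparisons in neurons used 1 fit of stage means over 12 plates. Class comparisons in the SS2_20 plates and subclass comparisons held the plate as a block, and hair cell comparisons did not. Sums of a plate deviated together for subclasses (r = 0.224 to 0.479 over 12 pairs) and hardly for classes (-0.008 to 0.098, 18 pairs) or hair cells (-0.001 to 0.020, 12 pairs). The script was tested on simulated counts. Plates are replicates by their labels, and nothing says that animals were not shared, so p-values measure the spread between plates. Hair cell comparisons were fitted together with the SGN-like sums of all 12 plates, which hold more wells. Their p-values thus rest in large part on the spread of SGN-like sums and not on that of HC sums alone. Intervals and floors (3 counts) cover counting error only.

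The genes and lists were chosen with earlier results of these data known. Values in every plate are given for the 3 members highest and the 3 lowest by log2 fold change among those called in a comparison, and levels or fits for Nrp1, Nrp2, Plxna2, Plxna4, Plxnc1, Sema3a, Sema3f, Sema4d, Ntng1, Ntng2, Slit1, Slit2 and Dcc. Gene lengths and bodies are from GENCODE vM21 and promoters from RefSeq. Alternatives were DESeq2 1.42.0, limma 3.58.1 on mean log2(CPM + 1) per well, no filter on low counts, resolution 2, another filter on wells (50000 counts, 2500 genes, and a looser ERCC limit of 25%), SGN-like wells in the lower 50% by glial markers, the block, each plate left out and, added after the data were seen, mixed wells kept or left out.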

Additional observations from a re-analysis of the deposited data

Results flagged for a closer look

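Levels of the named genes were screened for a plate far from the others (Dixon's test at the 95% level, 100 groups of 4 or 6 plates), and 12 stood out. Chance flags about 1 in 20 groups.

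In SGN-like sums of the SS2_20 plates, Plxnd1 was at 13.5 CPM in replicate 1 of E14.5 and at 0 to 3.95 CPM in the other plates, Ntn5 at 0.426 CPM in replicate 3 of E16.5 (others 0 to 0.155), and Slit1 at 48.0 CPM at E17.5 (others 8.53 to 17.3). In glia-like sums, E17.5 was highest for Sema5a (35.5 CPM, others 3.82 to 14.4) and Unc5d (1.91 CPM, others 0 to 0.524), and replicate 2 of E14.5 was lowest for Slit2 (50.6 CPM, others 79.0 to 92.1).

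In OM-like sums, E17.5 was highest for Plxna4 (55.0 CPM, others 0.788 to 14.04) and Ntng2 (4.44 CPM, others 0 to 1.50), and replicate 2 of E15.5 for Plxnb3 (3.20 CPM, others 0 to 1.06) and Plxnd1 (105 CPM, others 8.14 to 43.4). Among late SGN subclasses, replicate 2 of P3 was highest for Nrp1 in Ia-like sums (38.7 CPM, others 23.5 to 25.7) and lowest for Unc5d in II-like sums (86.5 CPM, others 155 to 160.2), the latter from 4 wells.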

How the results depend on the processing

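Counts of guidance genes called moved by over 1.5 times in these settings. The count for E18.5 against E14.5 in neurons (19) was lower without either E18.5 plate, and so was the number of all genes called. Each of those fits leaves 1 plate at E18.5. The stage comparisons with 0 calls in the SS2_20 plates gave 6 by DESeq2, 2 by limma and 1 without the filter on low counts in neurons, 3 by DESeq2 in glia, 2 by DESeq2 in mesenchyme, and 4 by DESeq2, 6 by limma and 1 with no replicate block for the difference between glial and neuronal change. OHC-like against IHC-like (8) gave 14 by limma. II-like against type I (12) gave 5 with no replicate block and 4 with mixed wells left out. Ib/Ic-like against Ia-like (9) gave 4 in the lower 50% by glial markers, 2 with no replicate block and 1 with mixed wells left out. The causes were not tested. The ranges that follow count guidance genes only, and the number of all genes called moved with the plate left out as well.

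With each plate left out in turn, the counts ran from 11 to 23 for E18.5 against E14.5, 14 to 22 for P3 against E18.5, 33 to 38 for glia and 27 to 28 for mesenchyme against neurons, 19 to 27 for mesenchyme against glia, 23 to 30 for hair cells against neurons, 4 to 8 for OHC-like against IHC-like, 10 to 15 for vestibular against cochlear hair cells, 8 to 15 for II-like and 2 to 9 for Ib/Ic-like, and stayed at 0 for the 4 stage comparisons in the SS2_20 plates.

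Over 102 pairs of a named gene and a comparison, 1619 alternative values were computed. Of these 1486 kept direction and call, 131 kept direction and lost the call, and 2 reversed: Nrp2 for E18.5 against E14.5 by limma (0.126) and Plxnb3 for hair cells against neurons with mixed wells kept (-1.87). No paired analysis was possible between stages because they share no plate. For the class comparisons the replicate block moved no other count by over 1.5 times (41 calls without it for glia against neurons, 29 for mesenchyme against neurons). The lower 50% by glial markers was not run for glia or mesenchyme over stage, mesenchyme against glia, or the comparisons among hair cells. Depth limits the hair cell sums most, where a few counts set the fold of Dcc, Slit1 and Ntng1.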

Other observations

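Some wells belonged to no comparison. At E14.5 an unnamed cluster of 53 wells led by Col9a1, Col9a3 and Epyc held Sema3c at 204 CPM and Ntn3 at 110.3 CPM. A cluster of 45 wells led by Acta2, Col1a1 and Igf1 held Nrp1 at 746.5 CPM and Plxna2 at 234 CPM, and a small one of 6 wells led by the macrophage genes Csf1r, C1qb and Lyz2 held Plxnb2 at 513 CPM, Nrp1 at 437 CPM and Sema4d at 389 CPM. A cluster of 12 wells led by Oc90, Zpld1 and Cldn6 held Unc5c at 315 CPM and Robo1 at 232 CPM.

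HC-like wells of earlier stages were too few for a test. The 12 wells of E16.5 held Sema5b at 137 CPM and Unc5b at 99.4 CPM, and the 5 wells of E17.5 held Unc5b at 603 CPM and Sema5b at 320 CPM. At E18.5, 13 HC-like wells led by Epyc, Col3a1 and Lect1 were not named as inner or outer, and held Sema5b at 357 CPM, Plxnb2 at 269 CPM and Robo2 at 20.0 CPM. Their marker score was 0.47 for IHC and -0.14 for OHC.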
